A study of Mus musculus with 14 samples.

Results

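The genes of antigen presentation by the major histocompatibility complex (MHC) were followed in hearts of mice with a cardiomyocyte deletion of Fam210a. They were taken as every symbol that begins with H2-, the mouse MHC prefix, together with B2m, Tap1, Tap2, Tapbp, Cd74, Ciita and Nlrc5, as long as a symbol had 10 or more counts in at least 3 libraries of each of the 2 count tables. Of 53735 symbols, 52 had one of these names and 25 of those passed. By role, 2 were classical class I heavy chains, 9 non-classical class I genes, 5 class I machinery, 3 class II chains and 5 class II machinery, and H2-K2, annotated as a transcribed pseudogene, was kept apart. Class I therefore had 16 members and class II had 8.

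MHC class I molecules stand on nearly every nucleated cell and show peptides from inside the cell to CD8 T cells and natural killer cells. Class II molecules are made mainly by dendritic cells, B cells and activated macrophages and show peptides taken up by the endosomal route to CD4 T cells, while cardiomyocytes normally make little of them. NLRC5 is the transactivator of class I genes and CIITA that of class II genes, and interferon-gamma raises both classes.

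RNA of whole hearts was sequenced from male C57BL/6 mice. Knockout hearts (cKO) carried Fam210a fl/fl and the alphaMHC MerCreMer transgene, and control hearts carried the same transgene without floxed alleles, so that a tamoxifen-activated Cre under the cardiomyocyte Myh6 promoter was present in both genotypes, and both were given tamoxifen. Hearts were collected about 5 weeks (early, 4 cKO and 4 control) or about 10 weeks (late, 3 cKO and 3 control) after tamoxifen, when heart function was described by the submitters as normal and as strongly impaired. The Cre acts in cardiomyocytes, so the other cells of the heart keep Fam210a.

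Each time point is a table of its own, with 15657298 to 19466469 counts per heart early and 29989076 to 35750964 late, so levels were compared within a table. The deleted gene, Fam210a, averaged 66.8 ± 3.41 CPM (the count relative to the TMM-scaled library size) in late cKO hearts and 128 ± 7.27 CPM in late controls (SD, n = 3 each; log2 fold change -0.94, edgeR adjusted p = 6.5e-05). Early it averaged 146 ± 10.2 CPM in early cKO hearts and 170 ± 6.04 CPM in early controls (SD, n = 4 each; log2 fold change -0.22, edgeR adjusted p = 0.17). Early cKO replicate 4 is a knockout by title and description but has the control genotype in its genotype field, and it was treated as a knockout. In Fam210a the early groups did not overlap, so this heart lay below every early control. Early cKO replicate 2 had 165 CPM of the atrial gene Bmp10, against at most 0.0593 CPM in any other early heart. Late cKO replicate 3 stood apart, at a chi-square of 107 and 101 per gene from the other late cKO hearts, which differed from each other by 21.5. Heart tissue was clear from 10 cardiomyocyte genes (Myh6, Tnnt2 and others), whose summed level was 65619 to 76600 CPM in late cKO hearts and 73768 to 83584 CPM in late controls. Whether the libraries come from different animals is not stated in the labels, and the p-values describe the spread between libraries.

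Most of the members lie together: 21 of the 25 are on chromosome 17, the mouse MHC, and B2m, Nlrc5, Ciita and Cd74 are on chromosomes 2, 8, 16 and 18. Class I and class II promoters share a layout, the SXY module, in which an X box bound by RFX and CREB factors stands upstream of a Y box bound by NF-Y, and CIITA or NLRC5 joins that complex. Promoter windows from RefSeq (GRCm38.p6, 250 bases before to 50 after the start) were matched to 16 of the 25 members, 11 of class I and 5 of class II. The 160 bases before the start are printed for the 2 classical heavy chains, their light chain and 2 class II chains, since they stood at opposite ends of the late response: H2-K1 at chr17:34000348-34000507 (minus strand), H2-D1 at chr17:35262934-35263093 (plus), B2m at chr2:122147527-122147686 (plus), H2-Aa at chr17:34287824-34287983 (minus) and H2-Eb1 at chr17:34305707-34305866 (plus). Each runs 5′ to 3′ on the gene's strand. The start is that of RefSeq. For H2-D1 it lies inside the GENCODE gene (chr17:35262730-35267499), so all of the bases printed for H2-D1 do too. Capitals mark the Y box core ATTGG or its complement CCAAT, the X2 core TGACG and the X1 core GCAAC. They also mark TTTCNNTTC, a pattern like that of an interferon-stimulated response element. All were read on both strands with overlaps kept. Similar elements with another spacing, such as gaaactgaaa in the B2m window, were not searched for and are not marked or counted.
H2-K1: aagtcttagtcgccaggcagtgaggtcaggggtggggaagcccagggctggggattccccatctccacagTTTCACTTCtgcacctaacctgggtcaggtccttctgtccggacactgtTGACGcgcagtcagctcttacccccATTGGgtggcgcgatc
H2-D1: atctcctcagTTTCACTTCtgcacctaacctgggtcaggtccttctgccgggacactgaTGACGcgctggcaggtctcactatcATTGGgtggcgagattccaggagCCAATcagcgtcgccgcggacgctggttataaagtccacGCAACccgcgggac
B2m: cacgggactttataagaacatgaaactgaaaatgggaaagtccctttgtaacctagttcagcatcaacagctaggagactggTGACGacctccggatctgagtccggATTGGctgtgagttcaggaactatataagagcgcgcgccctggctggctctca
H2-Aa: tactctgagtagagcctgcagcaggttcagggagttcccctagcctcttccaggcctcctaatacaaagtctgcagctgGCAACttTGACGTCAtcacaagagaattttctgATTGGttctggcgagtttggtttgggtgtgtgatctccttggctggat
H2-Eb1: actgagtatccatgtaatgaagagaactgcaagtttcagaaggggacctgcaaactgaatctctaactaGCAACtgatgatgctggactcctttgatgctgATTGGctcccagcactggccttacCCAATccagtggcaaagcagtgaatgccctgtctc

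The Y box core was in all 11 class I and all 5 class II windows that could be matched, and in 37.4% of the 32851 promoter windows in the table. TGACG was in 8 of the 11 class I windows, in 1 of the 5 class II windows (H2-Aa, where it overlaps its own complement) and in 20.8% of all windows. GCAAC was in 4 of 11, in 4 of 5 and in 35.2%. The GCAAC of H2-D1 lies nearer the start than its TGACG and both of its Y box cores. It is therefore not where the module has its X box. TTTCNNTTC was in 6 of the 11 class I windows (H2-D1, H2-K1, H2-M3, H2-Q4, H2-Q6 and H2-Q7), in 0 of the 5 class II windows and in 7.52% of all windows. TGACG followed on the same strand by ATTGG at a distance of 12 to 22 bases, a spacing chosen after these windows were seen, was in the windows of B2m, H2-D1, H2-K1, H2-M3, H2-Q7 and H2-Aa and in 0.475% of all windows. These are exact letter matches in a window and not measured binding. Variants of these letters were not searched for, so a window without a match may still hold the element.

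At about 5 weeks no member passed the test. edgeR called 0 of 25 members at an adjusted p under 0.05, where it called 0.613% of all 13529 genes tested. By edgeR 0 members had an unadjusted p under 0.05, and DESeq2 also called 0. The 16 class I members had log2 fold changes (cKO over control) of -0.11 to 0.24, with a median of 0.09, and the 8 class II members 0.01 to 0.26, with a median of 0.15, beside a median of 0.00 over all genes. Without early cKO replicate 2 the medians were 0.06 for class I and 0.10 for class II, and with cKO replicate 4 counted as a control 0.07 and 0.11. Without control replicate 2 the class I median was 0.014, and without control replicate 4 the medians were 0.16 for class I and 0.22 for class II. H2-DMa was the 1 member whose groups did not overlap early, as for 5.65% of all genes.

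At about 10 weeks all 25 members fell. The median log2 fold change was -3.77 over the 8 class II members (13.6-fold lower) and -1.52 over the 16 class I members (2.87-fold lower), beside -0.02 over all 14942 genes tested. edgeR called 25 of 25 lower, with adjusted p of 0.00107 or less, while 33.2% of all genes tested were called lower and 65.0% were called in either direction. In each of the 25 members every cKO heart was below every control heart, as for 35.9% of all genes. A called fall of 4-fold or more was seen in all 8 class II members, in 4 of the 16 class I members and in 7.96% of all genes. A called fall of 8-fold or more was seen in 7 of the 8, in 1 of the 16 (H2-T24) and in 3.02%. H2-Ob and Ciita passed the late count minimum through the control hearts alone and so had to differ, and the class II median without them was also -3.77. Of the other 6 class II members, 5 had a called fall of 8-fold or more. Without late cKO replicate 3 the medians were -4.04 for class II and -1.56 for class I. In whole-heart RNA, fewer cells of a type and less RNA per cell cannot be told apart.

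**Figure D1:**
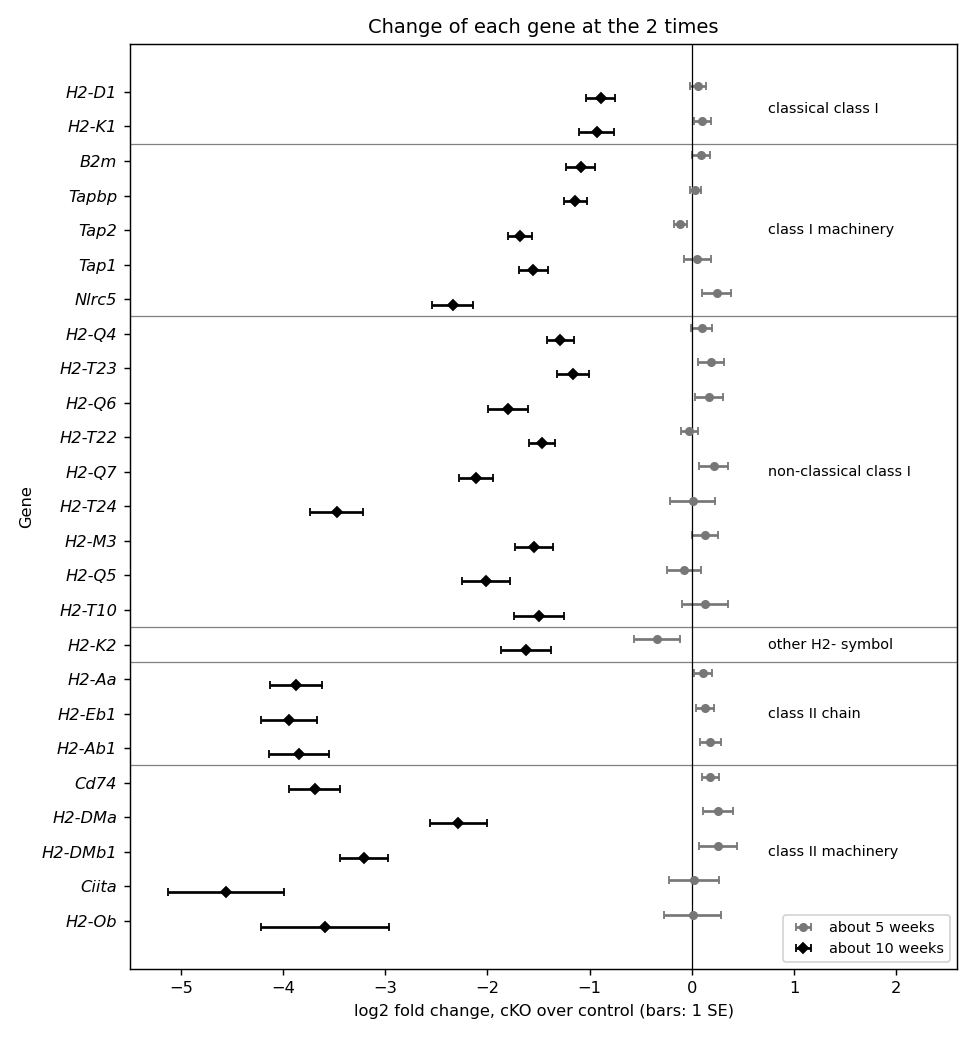
Log2 fold change of cKO over control for each of the 25 members at about 5 weeks (grey circles) and about 10 weeks (black diamonds), grouped by role, with bars of 1 standard error on each side. Every late point lies left of 0, with class II members between -4.56 and -2.28 and class I members between -3.48 and -0.89, and early points lie between -0.34 and 0.26.

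The classical class I heavy chains, which present peptides to CD8 T cells, had the smallest late falls. H2-K1 (chr17:33996017-34000347 on GRCm38, GENCODE M21, minus strand) had 85.2, 78.4 and 118 CPM in the late cKO hearts, against 197, 182 and 159.6 CPM in the late controls. H2-D1 (chr17:35262730-35267499, plus strand) had 104, 91.4 and 130.3 CPM in the late cKO hearts, against 207, 199 and 197 CPM in the late controls. In both genes cKO replicate 3 was the highest cKO heart, and it was still below every control. H2-K1 fell 1.91-fold (log2 fold change -0.93, SE 0.17, edgeR adjusted p = 0.00107), and H2-D1 fell 1.85-fold (log2 fold change -0.89, SE 0.14, edgeR adjusted p = 0.000503). H2-K1 had 147, 167, 149 and 146 CPM in the early cKO hearts, against 133, 122, 153 and 159 CPM in the early controls. H2-D1 had 149.7, 178, 159.8 and 156 CPM in the early cKO hearts, against 146, 138, 154 and 179 CPM in the early controls. The early groups overlapped in both genes, and cKO replicate 2 was the highest heart of all for H2-K1 (H2-K1: log2 fold change 0.10, SE 0.08, edgeR adjusted p = 0.744; H2-D1: log2 fold change 0.06, SE 0.08, edgeR adjusted p = 0.865).

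B2m, beta-2-microglobulin, is the light chain that every class I heavy chain needs to reach the cell surface. B2m (chr2:122147686-122153083, plus strand) had 117, 90.3 and 123 CPM in the late cKO hearts, against 249, 236 and 218 CPM in the late controls, 2.12-fold lower (log2 fold change -1.09, SE 0.14, edgeR adjusted p = 0.000150). In the early table it had 187, 236, 197 and 195 CPM in the early cKO hearts, against 172, 177, 200.0 and 216 CPM in the early controls, and the groups overlapped (log2 fold change 0.09, SE 0.09).

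Peptides enter the endoplasmic reticulum through the transporter TAP1/TAP2, and tapasin (Tapbp) holds empty class I molecules beside it. Tap1 (chr17:34187553-34197225, plus strand) had 5.81, 4.69 and 5.31 CPM in the late cKO hearts, against 16.9, 14.9 and 14.5 CPM in the late controls. Tap2 (chr17:34203527-34216321, plus strand) had 13.2, 11.4 and 13.4 CPM in the late cKO hearts, against 39.6, 42.1 and 40.0 CPM in the late controls. Tapbp (chr17:33915899-33929292) had 44.7, 40.8 and 50.2 CPM in the late cKO hearts, against 100.3, 102 and 96.6 CPM in the late controls. All 3 groups of cKO hearts lay wholly below their controls. Tap2 fell 3.21-fold (log2 fold change -1.68, SE 0.12, edgeR adjusted p = 4.41e-06), Tap1 2.93-fold (log2 fold change -1.55, SE 0.14, edgeR adjusted p = 1.97e-05) and Tapbp 2.20-fold (log2 fold change -1.14, SE 0.11, edgeR adjusted p = 3.29e-05). Tap1 overlaps the 5′ end of Psmb9 on the other strand, and the library kit does not mark strand, so reads of the overlap cannot be told apart. Of the 100-base windows of Tapbp transcripts, 14.8% also occur in another gene, chiefly Gm19412. Tap1 had 15.8, 13.7, 12.7 and 13.4 CPM in the early cKO hearts, against 13.4, 10.0, 13.1 and 16.8 CPM in the early controls. Tap2 had 32.8, 33.6, 36.1 and 37.4 CPM in the early cKO hearts, against 36.6, 36.3, 39.4 and 39.0 CPM in the early controls. Tapbp had 91.0, 95.4, 86.4 and 88.7 CPM in the early cKO hearts, against 87.4, 83.1, 91.3 and 91.3 CPM in the early controls. These groups overlapped, with log2 fold changes of 0.05 for Tap1, -0.11 for Tap2 and 0.03 for Tapbp.

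Nlrc5, the class I transactivator, fell the most of the class I machinery. It (chr8:94434356-94527272) had 1.41, 1.34 and 0.960 CPM in the late cKO hearts, against 6.48, 6.07 and 6.39 CPM in the late controls, 5.07-fold lower (log2 fold change -2.34, SE 0.20, edgeR adjusted p = 1.18e-05). Nlrc5 had 7.23, 8.33, 6.28 and 6.62 CPM in the early cKO hearts, against 6.28, 5.23, 5.00 and 7.41 CPM in the early controls, and the groups overlapped (log2 fold change 0.24, SE 0.14).

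Among the non-classical class I genes, H2-T24 had the largest late fall. It (chr17:36005695-36020560, minus strand) had 0.451, 0.938 and 0.925 CPM in the late cKO hearts, against 8.43, 8.27 and 9.12 CPM in the late controls, 11.1-fold lower (log2 fold change -3.48, SE 0.26, edgeR adjusted p = 5.79e-06). No other class I member fell by 8-fold, and without H2-T24 the class I median was -1.50. The Qa-2 genes H2-Q6 and H2-Q7 encode non-classical molecules read by natural killer and CD8 T cells. H2-Q7 had 2.86, 2.67 and 3.46 CPM in the late cKO hearts, against 14.4, 11.8 and 12.7 CPM in the late controls (4.32-fold lower, log2 fold change -2.11). H2-Q6 had 6.50, 5.60 and 9.43 CPM in the late cKO hearts, against 28.5, 23.5 and 22.7 CPM in the late controls (3.48-fold lower). Both sets of hearts were apart. H2-Q4 had 17.5, 15.2 and 20.3 CPM in the late cKO hearts, against 44.0, 43.7 and 41.7 CPM in the late controls (2.44-fold lower). H2-Q5, annotated as a polymorphic pseudogene, had 1.38, 0.938 and 0.857 CPM in the late cKO hearts, against 4.56, 3.74 and 4.62 CPM in the late controls (4.04-fold lower). Up to 14.1% of the 100-base windows of the transcripts of these 4 H2-Q genes also occur in another gene, so their reads may have been split or dropped in counting.

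H2-T23 encodes Qa-1, the ligand of the CD94/NKG2A receptor of natural killer cells, and H2-T10 and H2-T22 encode ligands of some gamma delta T cells. H2-T23 had 13.6, 9.86 and 13.2 CPM in the late cKO hearts, against 28.9, 29.2 and 23.8 CPM in the late controls (2.24-fold lower). H2-T22 had 9.21, 7.79 and 9.49 CPM in the late cKO hearts, against 26.2, 23.6 and 23.3 CPM in the late controls (2.76-fold lower). The late groups were apart in both. H2-T10, a polymorphic pseudogene in the annotation, had 0.722, 0.768 and 0.891 CPM in the late cKO hearts, against 2.70, 1.95 and 2.07 CPM in the late controls (2.82-fold lower). H2-M3, which presents N-formylated peptides of bacterial and mitochondrial origin, had 1.72, 1.96 and 1.99 CPM in the late cKO hearts, against 6.38, 5.44 and 4.71 CPM in the late controls (2.91-fold lower). Of the 100-base windows of H2-T22 and H2-T10, 31.5% and 28.1% occur in another gene, the largest shares among the members. The pseudogene H2-K2 had 1.38, 0.881 and 1.47 CPM in the late cKO hearts, against 3.35, 4.46 and 3.66 CPM in the late controls (3.08-fold lower). The log2 fold changes of these 9 genes of the H2-Q, H2-T, H2-M and H2-K2 kind, H2-T24 left out, lay between -1.16 and -2.11. Early, the same 9 lay between -0.34 (H2-K2) and 0.21, and H2-T24 at 0.01.

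In the early table the cKO and control hearts overlapped for each of these genes. H2-T24 had 7.61, 7.75, 5.28 and 5.91 CPM in the early cKO hearts, against 6.16, 3.76, 7.31 and 9.01 CPM in the early controls. H2-Q4 had 36.6, 39.8, 33.1 and 38.5 CPM in the early cKO hearts, against 35.7, 26.9, 36.9 and 38.6 CPM in the early controls. H2-Q5 had 3.11, 3.82, 3.14 and 3.60 CPM in the early cKO hearts, against 3.23, 2.93, 3.46 and 4.74 CPM in the early controls. The log2 fold changes of these 3 were 0.01 (SE 0.22), 0.10 (SE 0.10) and -0.08 (SE 0.17). H2-Q6 had 19.3, 21.9, 16.3 and 21.6 CPM in the early cKO hearts, against 17.4, 13.0, 19.2 and 20.6 CPM in the early controls. H2-Q7 had 11.1, 11.6, 8.47 and 11.8 CPM in the early cKO hearts, against 8.50, 7.21, 10.2 and 11.0 CPM in the early controls. H2-M3 had 4.12, 4.40, 4.94 and 4.73 CPM in the early cKO hearts, against 3.95, 3.76, 4.55 and 4.39 CPM in the early controls. In the Qa-2 genes H2-Q6 and H2-Q7 the lowest early heart was control replicate 2. H2-T10 had 1.46, 1.27, 1.40 and 1.06 CPM in the early cKO hearts, against 1.08, 0.893, 1.47 and 1.30 CPM in the early controls. H2-T22 had 14.7, 15.6, 14.6 and 16.01 CPM in the early cKO hearts, against 14.5, 13.8, 17.05 and 16.5 CPM in the early controls. H2-T23 had 17.5, 22.4, 18.9 and 20.3 CPM in the early cKO hearts, against 16.8, 13.5, 17.05 and 21.9 CPM in the early controls. Early control replicate 2 was also the lowest of the 8 hearts for H2-T10, H2-T22 and H2-T23. H2-K2 had 1.84, 2.72, 2.44 and 3.31 CPM in the early cKO hearts, against 2.63, 2.74, 2.95 and 4.74 CPM in the early controls.

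The class II chains fell together, 14.4-fold to 15.3-fold. H2-Aa and H2-Ab1 encode the alpha and beta chain of I-A, the class II molecule of C57BL/6 mice. H2-Aa (chr17:34282744-34287823, minus strand) had 2.77, 3.87 and 5.38 CPM in the late cKO hearts, against 64.4, 66.0 and 44.8 CPM in the late controls. H2-Ab1 (chr17:34257689-34269419, plus strand) had 2.05, 2.70 and 4.32 CPM in the late cKO hearts, against 51.3, 47.7 and 30.5 CPM in the late controls. H2-Eb1 (chr17:34305867-34316674, plus strand), the beta chain of I-E, had 2.77, 2.56 and 4.25 CPM in the late cKO hearts, against 59.1, 53.8 and 33.3 CPM in the late controls. In all 3, control replicate 3 was the lowest control and cKO replicate 3 the highest cKO heart, and a wide gap remained between the groups. H2-Aa fell 14.6-fold (log2 fold change -3.87, SE 0.26, edgeR adjusted p = 3.33e-06), H2-Ab1 14.4-fold (log2 fold change -3.84, SE 0.30, edgeR adjusted p = 7.44e-06) and H2-Eb1 15.3-fold (log2 fold change -3.94, SE 0.27, edgeR adjusted p = 4.29e-06). C57BL/6 mice make no I-E alpha chain, and its symbol H2-Ea-ps had 0 counts in all 14 hearts, which allows up to 3 counts in each. H2-Aa had 43.9, 55.6, 42.4 and 51.6 CPM in the early cKO hearts, against 42.4, 42.7, 44.5 and 49.6 CPM in the early controls. H2-Ab1 had 35.9, 40.4, 29.3 and 32.0 CPM in the early cKO hearts, against 29.8, 26.7, 31.9 and 33.0 CPM in the early controls. H2-Eb1 had 39.8, 44.3, 32.9 and 40.2 CPM in the early cKO hearts, against 33.7, 35.1, 35.3 and 39.5 CPM in the early controls. These groups overlapped, and the log2 fold changes were 0.11, 0.18 and 0.13 for H2-Aa, H2-Ab1 and H2-Eb1.

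Cd74, the invariant chain that guides class II molecules to the endosome, had 8.64, 7.14 and 13.1 CPM in the late cKO hearts, against 139, 137 and 95.8 CPM in the late controls. It fell 12.9-fold (log2 fold change -3.69, SE 0.25, edgeR adjusted p = 3.82e-06). Cd74 had 104, 124, 94.6 and 109 CPM in the early cKO hearts, against 92.5, 86.4, 99.3 and 103 CPM in the early controls, with overlapping groups (log2 fold change 0.18, SE 0.08, edgeR adjusted p = 0.491).

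H2-DMa and H2-DMb1 form H2-DM, which exchanges the invariant chain's remnant for peptide, and H2-Ob is a chain of H2-DO, the inhibitor of H2-DM. H2-DMa (chr17:34119541-34139101) had 0.722, 0.938 and 1.17 CPM in the late cKO hearts, against 5.11, 5.44 and 3.21 CPM in the late controls. H2-DMb1 (chr17:34153072-34160230) had 0.301, 0.370 and 0.446 CPM in the late cKO hearts, against 3.58, 3.36 and 3.42 CPM in the late controls. H2-Ob (chr17:34238903-34254414) had 0, 0.0853 and 0.0685 CPM in the late cKO hearts, against 0.749, 0.817 and 0.420 CPM in the late controls. The cKO hearts were lower in each, and H2-Ob had only 5 counts over the 3 late cKO hearts. H2-DMa fell 4.87-fold (log2 fold change -2.28, SE 0.28, edgeR adjusted p = 0.000102), H2-DMb1 9.25-fold (log2 fold change -3.21, SE 0.24, edgeR adjusted p = 5.78e-06) and H2-Ob had a fitted log2 fold change of -3.59 (SE 0.62, edgeR adjusted p = 0.000835). H2-DMb1 shares 11.3% of its 100-base windows with other transcripts, chiefly those of H2-DMb2. H2-DMa shares 6.58% of its windows with Brd2. H2-DMa had 3.36, 4.40, 3.44 and 3.66 CPM in the early cKO hearts, against 3.35, 2.87, 2.88 and 3.32 CPM in the early controls. H2-DMb1 had 2.79, 2.84, 2.19 and 2.07 CPM in the early cKO hearts, against 1.91, 2.10, 1.67 and 2.55 CPM in the early controls. H2-Ob had 0.634, 0.579, 0.897 and 0.650 CPM in the early cKO hearts, against 0.658, 0.574, 0.577 and 0.948 CPM in the early controls. H2-DMb1 and H2-Ob overlapped between groups and H2-DMa did not, and H2-DMa had an edgeR adjusted p of 0.581 (log2 fold change 0.26, SE 0.14).

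Ciita, the transactivator on which class II transcription depends, was near its detection limit. It (chr16:10480059-10528418) had 0.150, 0 and 0.0685 CPM in the late cKO hearts, against 1.53, 1.48 and 2.34 CPM in the late controls. These were 7 counts over the 3 late cKO hearts and 47 to 78 counts in each late control. The fitted log2 fold change was -4.56 (SE 0.57, edgeR adjusted p = 0.000119), and its size depends on the few counts. Control replicate 3 was the highest control for Ciita and the lowest for the 3 class II chains. Ciita had 1.65, 1.16, 1.79 and 1.83 CPM in the early cKO hearts, against 1.02, 1.59, 1.54 and 2.19 CPM in the early controls, and the groups overlapped (log2 fold change 0.02, SE 0.25).

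**Figure D2:**
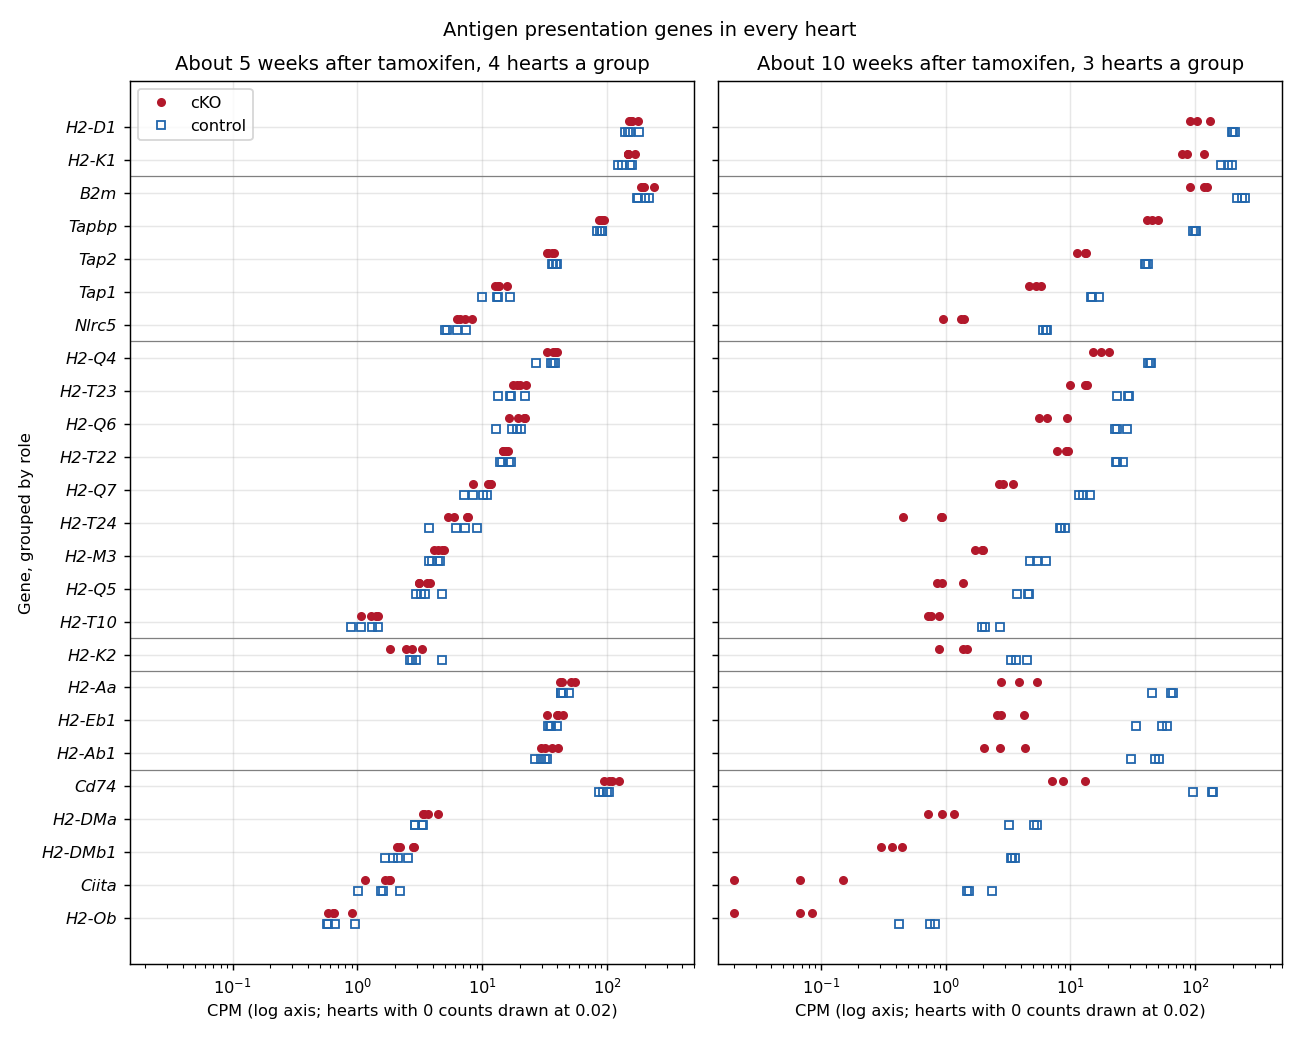
CPM of each of the 25 members in each heart on a log axis, by role and time, cKO beside control; hearts with 0 counts are drawn near the left edge. In the late panel all 3 cKO hearts lie below all 3 controls for every member.

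Per kilobase of exonic length, late controls had the most of B2m (272 CPM per kb), then H2-D1 (77.9), Cd74 (73.8) and H2-K1 (61.0), followed by Tapbp (27.5) and H2-Eb1 (25.1). The SD of Cd74 over the 3 controls was 14.5, so its place beside H2-D1 and H2-K1 was within its spread. Late cKO hearts had 128 CPM per kb of B2m, 42.0 of H2-D1, 32.0 of H2-K1, 12.5 of Tapbp, 5.73 of Cd74 and 1.64 of H2-Eb1. Cd74 lay below Tapbp in late cKO hearts and above it in late controls.

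Summed over members, both classes were lower in late cKO hearts, class II by the larger factor. The 16 class I members summed to 425, 364 and 502 CPM in the late cKO hearts, against 980, 933 and 876 CPM in the late controls. The 8 class II members summed to 17.4, 17.7 and 28.8 CPM in the late cKO hearts, against 325, 316 and 214 CPM in the late controls. The groups were apart for both sums, which were 2.16-fold and 13.4-fold lower for class I and class II. The log2 ratio of the class I to the class II sum was 4.37 ± 0.243 in late cKO hearts and 1.73 ± 0.264 in late controls (SD, n = 3 each), a difference of 2.64. With each member weighted alike (mean over members of log2 of CPM plus 0.1), the difference was 1.68. The added 0.1 shrinks the falls of members near 0 CPM, so this value reflects the offset as well as the equal weights. Early, the log2 ratio of the sums was 1.72 ± 0.0962 in cKO hearts and 1.79 ± 0.0488 in controls (SD, n = 4 each), a difference of -0.08. Because the members were chosen with results of these data known, this ratio has no p-value. Late cKO replicate 3 was the cKO heart with the highest level for 18 of the 25 members and had the lowest of the 3 late cKO ratios, 4.13.

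**Figure D3:**
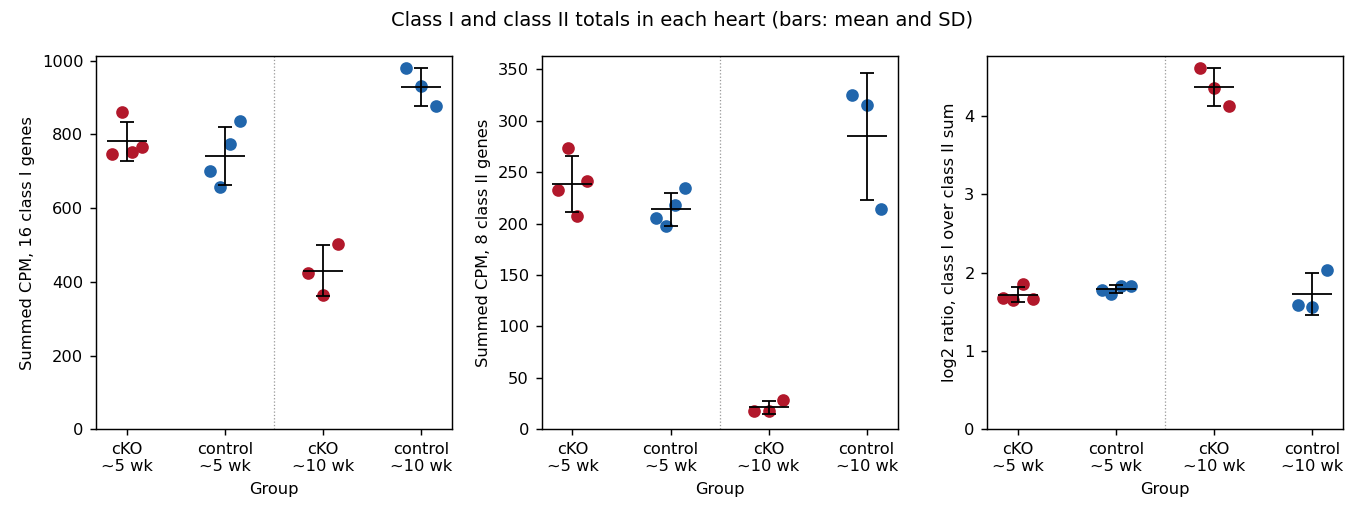
Summed CPM of class I and class II members in each heart and the log2 ratio of the sums, on linear axes, at about 5 and about 10 weeks, 1 point per heart, with the mean and SD of each group. Late cKO ratios are 4.13 to 4.61 and late control ratios 1.56 to 2.03, while early ratios are 1.65 to 1.86.

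The change in the fold change itself was tested across both tables. The genotype-by-time contrast of edgeR over all 14 hearts was lower late in 25 of 25 members (largest adjusted p 0.00508), where 31.3% of 14555 genes were called in that direction and 61.2% in either. The median difference of log2 fold changes, late minus early, was -3.91 over class II and -1.57 over class I members, and -0.01 over all genes. H2-Ob and Ciita, which met the late count minimum through the control hearts alone, had to differ here too. The class II median without them was also -3.91. Time and table cannot be told apart.

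Genes that supply class I with peptides were read against the background of 33.2% of all genes called lower and 31.8% called higher late. In the immunoproteasome list, 3 of 5 genes fell and the other 2 did not pass, with a median log2 fold change of -1.58. Psmb9, the gene next to Tap1 that encodes an interferon-inducible catalytic subunit, averaged 1.07 ± 0.542 CPM in late cKO hearts and 8.73 ± 0.178 CPM in late controls (SD, n = 3 each; log2 fold change -3.05, edgeR adjusted p = 3.26e-05). Psmb8, another such subunit, averaged 3.28 ± 1.26 CPM in late cKO hearts and 15.3 ± 2.28 CPM in late controls (log2 fold change -2.23, edgeR adjusted p = 6.68e-05), and Psme1, an activator subunit, averaged 41.3 ± 10.8 CPM in late cKO hearts and 123 ± 18.0 CPM in late controls (log2 fold change -1.58, edgeR adjusted p = 0.000100). Psme2 had a log2 fold change of -0.36 and did not pass (edgeR adjusted p = 0.196), nor did Psmb10, the immune counterpart of Psmb7, with 0.13 (edgeR adjusted p = 0.683). Of the constitutive beta subunits 3 of 3 rose, by a log2 fold change of 1.51 for Psmb5, 0.77 for Psmb7 and 0.63 for Psmb6. Of 10 further class I loading genes, 3 fell and 3 rose, with a median of 0.07, shares near that background. Erap1, the peptidase that trims class I peptides, averaged 9.26 ± 1.34 CPM in late cKO hearts and 33.1 ± 1.32 CPM in late controls (log2 fold change -1.84, edgeR adjusted p = 6.25e-06), and the tapasin relative Tapbpl fell with a log2 fold change of -0.91. Sec61a1, of the translocation channel, and Pdia3, a disulphide isomerase of the loading complex, rose with log2 fold changes of 1.01 and 0.36.

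In the class II processing list, genes of the endosomal route, 3 of 8 rose and 3 fell, with a median of 0.00. These shares were also near the background of 33.2% of all genes called lower and 31.8% called higher. Ctsl, a cathepsin, averaged 1217 ± 95.6 CPM in late cKO hearts and 167 ± 1.87 CPM in late controls (log2 fold change 2.87, edgeR adjusted p = 4.3e-07), Ctsd, another cathepsin, rose with a log2 fold change of 1.29 and March8, a ubiquitin ligase, with 0.71. Lgmn, an asparaginyl endopeptidase, fell with -1.20. Of the 7 genes for factors that assemble with CIITA and NLRC5, 5 fell and 1 rose, with a median of -0.60, beside the same 33.2% and 31.8%. Rfx5 averaged 2.82 ± 0.300 CPM in late cKO hearts and 7.63 ± 0.765 CPM in late controls (log2 fold change -1.43, edgeR adjusted p = 8.21e-05). Creb1 fell with -1.14 and Nfyc with -0.52, and Rfxank rose with 1.81.

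Genes of interferon signalling fell with the members. Of the 10 tested genes of interferon-gamma signalling, 8 fell and the other 2 did not pass (median -1.02), and Ifng itself was too low to test. Among the 8 was Socs1, at 0.142 to 0.171 CPM in late cKO hearts. It passed the count filter through the control hearts alone and so had to differ. Irf1, a regulator of class I genes, averaged 7.51 ± 0.995 CPM in late cKO hearts and 36.1 ± 3.66 CPM in late controls (log2 fold change -2.27, edgeR adjusted p = 2.72e-06). Irf2 and the receptor chain Ifngr2 fell with log2 fold changes of -1.73 and -1.32. Of 25 interferon-induced genes outside antigen presentation, 25 fell, with a median of -2.39, where 33.2% of all genes tested were called lower. Gbp2, a guanylate-binding protein, averaged 2.77 ± 0.130 CPM in late cKO hearts and 30.4 ± 0.801 CPM in late controls (log2 fold change -3.45, edgeR adjusted p = 2.08e-07). Oas2, Rsad2 and Gbp3 fell with -3.87, -3.12 and -2.80. In the early table the medians were 0.03 for interferon-gamma signalling, 0.04 for interferon-induced genes and -0.00 for the immunoproteasome.

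Most markers of the cells that make class II moved in the same direction late, where 33.2% of all genes tested were called lower. Of 16 macrophage markers 13 fell and the other 3 did not pass (median -0.75), and their summed level was 262 to 321 CPM in late cKO hearts and 506 to 507 CPM in late controls. Adgre1, Timd4, Folr2 and Ccr2 fell with log2 fold changes of -2.51, -3.95, -2.71 and -3.77. Timd4, at 0.137 to 0.199 CPM in late cKO hearts, passed the count filter through the control hearts alone and so had to differ. All 5 general leukocyte markers fell (median -1.88), with a sum of 22.9 to 25.1 CPM in late cKO hearts and 46.2 to 51.3 CPM in late controls. Ptprc, which encodes CD45, averaged 1.85 ± 0.295 CPM in late cKO hearts and 6.81 ± 0.597 CPM in late controls (log2 fold change -1.88, edgeR adjusted p = 3.01e-05), and Coro1a, Cd52 and Laptm5 fell with -2.23, -2.45 and -0.56. Of the 10 dendritic cell markers 2 were tested and called lower, Zbtb46 (-1.15) and Itgax (-2.64). Itgax, at 0.0853 to 0.181 CPM in late cKO hearts, passed the count filter through the control hearts alone and so had to differ. The list summed to 9.94 to 10.9 CPM in late cKO hearts and 21.0 to 25.3 CPM in late controls. Zbtb46 made up most of that sum, averaging 9.53 CPM in late cKO hearts and 21.1 CPM in late controls. Each other marker of the list averaged at most 0.793 CPM in late controls. Which cells the Zbtb46 RNA came from was not tested. Xcr1 and Clec9a had 0 counts in every late cKO heart, which allows up to 3 counts in each, and were also sparse in late controls, at 0.0651 to 0.157 CPM for Xcr1 and 0.228 to 0.300 CPM for Clec9a. Flt3 (0.235 against 0.133 CPM in late controls) and Itgae (0.256 against 0.219 CPM), also sparse, averaged higher in late cKO hearts. The other untested dendritic cell markers averaged lower.

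Of the 7 B cell markers 2 were tested and called lower, Ighm (-4.22) and Cd79b (-2.90), where 33.2% of all genes tested were. Cd79b, at 0.0569 to 0.103 CPM in late cKO hearts, passed the count filter through the control hearts alone and so had to differ. The list summed to 0.583 to 0.963 CPM in late cKO hearts and 10.8 to 12.3 CPM in late controls. Of the 8 T cell markers 2 were tested and called lower, Cd4 (-1.26) and Lck (-1.96). Lck, at 0.0903 to 0.171 CPM in late cKO hearts, likewise passed through the control hearts alone. The list summed to 0.739 to 1.17 CPM in late cKO hearts and 2.88 to 3.39 CPM in late controls. Of 7 natural killer cell markers 0 were tested, and their sum was 0.0569 to 0.274 CPM in late cKO hearts and 1.11 to 1.32 CPM in late controls. Cd8b1 and Nkg7 had 0 counts in every late cKO heart, which again allows up to 3 counts in each. Late controls had 0.120 to 0.220 CPM of Cd8b1 and 0.195 to 0.409 CPM of Nkg7.

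Cd74 fell further than Ptprc: Cd74 counts per Ptprc count were 4.35, 3.49 and 8.68 in the late cKO hearts, against 22.2, 20.4 and 12.9 in the late controls. These ratios did not overlap between the groups. The 35.9% of all genes with every late cKO heart below every control is a share of single genes and not of ratios. The ratio also depends on the marker chosen: Ighm (-4.22), Timd4 (-3.95) and Ccr2 (-3.77) fell further than Cd74 (-3.69). The other tested immune cell markers fell less or did not fall. Endothelial markers, of cells that carry class I, fell in 8 of 8 (median -1.26; Tie1, Eng, Kdr and Tek by -1.36, -1.23, -1.85 and -1.75), with a sum of 528 to 572 CPM in late cKO hearts and 1220.2 to 1427 CPM in late controls. Fibroblast markers fell in 6 of 8, with 2 not past the test (median -1.18; Dpt, Lum, Gsn and Tcf21 by -2.22, -2.34, -1.29 and -1.65), with a sum of 1551 to 1690.1 CPM in late cKO hearts and 3167 to 3944 CPM in late controls. Of 10 cardiomyocyte markers 4 fell and 1 rose (median -0.26), where 33.2% of all genes fell and 31.8% rose: Myl3 and Pln had log2 fold changes of -2.55 and -1.76 and Actn2 one of 0.93, and Myl2 averaged 4826 ± 1062 CPM in late cKO hearts and 9679 ± 1675 CPM in late controls (SD, n = 3 each, 2.01-fold lower). The part of these cell type markers in the fall of the members was not tested. In the early table the list medians were 0.09 for macrophage, 0.15 for leukocyte, 0.01 for endothelial, 0.08 for fibroblast and -0.14 for cardiomyocyte markers.

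**Figure D4:**
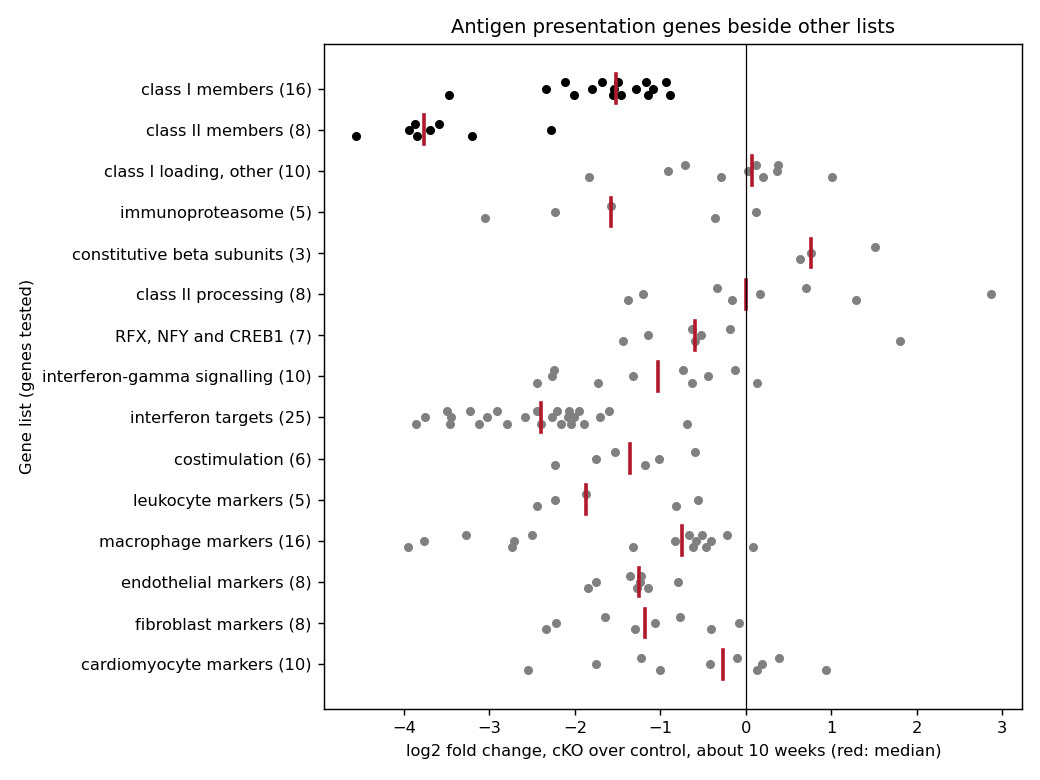
Late log2 fold change (cKO over control) of the class I and class II members and of the tested genes of 13 other lists (the lists of dendritic, B, T and natural killer cells and of class I-like genes are not drawn), 1 point per gene, with the median of each list as a red bar. Of the lists drawn, class II members (median -3.77) and interferon targets (-2.39) lie furthest left, and the constitutive proteasome list (0.77) lies right of 0.

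Of the 27 named symbols that failed the count minimum, 22 had at most 4 counts in any library and 13 of those had 0 counts in every heart. Just outside were H2-Ke6 and H2-DMb2, with 10 or more counts in 2 early libraries, and just inside were Ciita and H2-Ob, with 10 or more counts in 3 late libraries.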

How the data were processed

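The authors deposited whole-number read counts per gene symbol, 1 table per time point, and no normalization shows in the values. Per the labels' protocols, poly-A RNA of whole heart was made into TruSeq V2 libraries, which do not mark strand, and read as single ends of 100 nt. Per the submitters' processing notes, Trimmomatic 0.36 and STAR 2.6.0c were used on GRCm38. The program that counted reads, with its annotation and strand option, is not given in the sources used here. Totals were 15657298 to 19466469 counts per early heart and 29989076 to 35750964 per late heart, and intervals from counts cover counting error only.

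The counts were tested with edgeR 4.0.16 (quasi-likelihood F test, TMM, filterByExpr with a minimum count of 10 and total of 15) in R 4.3.3, each time point alone over all genes, with Benjamini-Hochberg adjustment and a threshold of 0.05. A gene that passed the filter through the hearts of a single group had to differ between the groups. A genotype-by-time contrast over all 14 libraries compared the times. Standard errors are the log2 fold change over the square root of F. CPM per kb used the exonic length of GENCODE M21, from which coordinates were taken. Shared sequence was counted as 100-base windows of a member's transcripts found in another gene's. Alternatives were DESeq2 1.42.0, RLE size factors, no filter, a replicate block, early cKO replicate 4 counted as a control and each replicate left out. Same-numbered hearts did not deviate together, so numbers were not used as pairs.

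Samples were grouped by their labels. The lowest chi-square per gene between hearts of a group was 3.90, so no library repeated another within sampling noise. The members, the gene lists and the tests were chosen with earlier results of these data known. All members are named, and in each other list up to 4 tested genes with the smallest late p. A gene that this rule names is not reported here.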

Additional observations from a re-analysis of the deposited data

Results flagged for a closer look

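In all 25 members the late change differed from the early change by the genotype-by-time contrast of edgeR, where 61.2% of all genes did. The difference, late minus early log2 fold change, was -4.54 for Ciita, -4.05 for H2-Eb1, -4.01 for H2-Ab1, -3.96 for H2-Aa, -3.85 for Cd74, -3.55 for H2-Ob, -3.45 for H2-DMb1 and -2.52 for H2-DMa in class II. Ciita and H2-Ob met the late count minimum through the control hearts alone and so had to differ. In class I it was -3.47 for H2-T24, -2.57 for Nlrc5, -2.31 for H2-Q7, -1.95 for H2-Q6, -1.92 for H2-Q5, -1.66 for H2-M3, -1.61 for H2-T10, -1.59 for Tap1, -1.55 for Tap2 and -1.43 for H2-T22. The smaller class I differences were -1.37 for H2-Q4, -1.34 for H2-T23, -1.16 for B2m, -1.16 for Tapbp, -1.02 for H2-K1 and -0.93 for H2-D1. The pseudogene H2-K2 had -1.26.

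Of the 50 early groups of 4 hearts, 2 held a heart far from the others, where chance gives about 1 in 20. H2-K1 reached 167 CPM in early cKO replicate 2, the highest of its group, and H2-K2 reached 4.74 CPM in early control replicate 4, the highest of its group.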

How the results depend on the processing

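The early count of members called stayed 0 and the late count and the count for the difference between times stayed 25 under every alternative run, including the replicate block (early 0, late 25, difference 25). Same-numbered hearts had correlations of -0.09 to -0.04 early and -0.41 to -0.06 late, and 0 cKO hearts correlated best with their own number. With the block 78 early and 8374 late genes were called. All 250 late and 475 difference values of single members kept their direction and side of the threshold. Of 325 early values 18 changed sign, none of them called. Leaving out 1 heart, early log2 fold changes ranged from -0.18 to 0.20 for H2-T24, -0.060 to 0.19 for Tap1, -0.14 to 0.22 for Ciita, -0.16 to 0.20 for H2-Ob, -0.0047 to 0.16 for H2-Q4, -0.074 to 0.026 for H2-T22 and -0.16 to 0.090 for H2-Q5. Ciita had -0.089 with early cKO replicate 4 counted as a control. The early count of all genes called, 83, was 173 with DESeq2, 388 with no filter and 162 with cKO replicate 4 counted as a control. It was 45 to 181 with 1 heart left out: 181 without cKO replicate 4, 46 without cKO replicate 2, and 54, 46 and 45 without control replicates 2, 3 and 4. The cause was not tested. The late difference of the log2 class I to class II ratio, 2.64, was 2.52 to 2.79 with 1 heart left out. It was 1.68 with members weighted alike and 0.1 added to each CPM. Class medians over the alternatives were -1.58 to -1.40 for class I and -4.04 to -3.62 for class II late. Depth limits Ciita and H2-Ob, with 7 and 5 counts over the late cKO hearts. Shared sequence limits H2-T22, H2-T10, Tapbp, the H2-Q genes, H2-DMb1 and, to a lesser degree, H2-DMa.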

Other observations

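Class I-like molecules encoded outside the MHC and the ligands that accompany antigen presentation were also lower in late cKO hearts. Of the 8 costimulatory and coinhibitory ligands, 6 were tested and 5 fell late (median log2 fold change -1.36), where 33.2% of all genes tested were called lower. Cd274, which encodes PD-L1, averaged 2.37 ± 0.170 CPM in late cKO hearts and 11.2 ± 0.691 CPM in late controls (SD, n = 3 each; log2 fold change -2.23, edgeR adjusted p = 3.83e-06). Icosl, the ligand of ICOS, fell with -1.75, Cd86, a ligand of CD28, with -1.53 and Tnfsf9, the ligand of 4-1BB, with -1.18. Of the 10 class I-like genes, 6 were tested and 5 fell (median -0.91). Fcgrt, the neonatal Fc receptor that pairs with B2m, averaged 38.9 ± 8.64 CPM in late cKO hearts and 93.1 ± 9.77 CPM in late controls (SD, n = 3 each; log2 fold change -1.26, edgeR adjusted p = 0.000172). Ulbp1, a ligand of the receptor NKG2D, fell with -1.89, Mr1, which presents vitamin B metabolites, with -0.94 and Cd1d1, which presents lipids, with -0.88. In the early table the list medians were 0.16 for the costimulatory list and -0.11 for the class I-like list.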
